A study of Capra hircus with 2 samples.

Results

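The miR-200 family was examined in the endometrium of Xinong Saanen dairy goats in early pregnancy. Its members are miR-141, miR-200a, miR-200b, miR-200c and miR-429, and a name was taken as a member when the part after "miR-" was one of these, whatever the species prefix, arm or end annotation. The rule found 7 of the 587 distinct names of known miRNAs, from 4 of the 5 members, and no name of miR-200b was found. Each of the 7 names was listed once. The goats were 24 months old, multiparous and synchronized for estrus, and endometrium was taken from the front wall of the uterine cavity of 10 goats on day 5 of pregnancy (pre-receptive phase, P library) and of 10 other goats on day 15 (receptive phase, R library). For each phase, RNA of 9 goats was combined into 3 samples of equal concentration, which were sequenced 3 times and are given as 1 value per miRNA. With 1 library per phase there is no replicate check, and each test compares 2 libraries of pooled goats, not the 2 phases. The value is the normalized expression (NE), the reads of a miRNA divided by 1 size factor per library, and 1 read was worth 0.860 NE in R against 1.16 in P. The known names together had 1904263 reads in the R library, against 4046620 in the P library. Some names share a sequence, such as oar-miR-10a_R+1_1ss12TA and oar-miR-10b_L+1R-1, so this total may count the same reads more than once. Shares of these reads and the scaling to them rest on this total.

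A miRNA binds messenger RNA mainly through its seed, bases 2 to 8 from the 5′ end, and lowers the output of the transcripts it pairs with. The miR-200 family is enriched in epithelial cells, where it represses ZEB1 and ZEB2, transcription factors that silence E-cadherin, and the ZEB factors in turn repress the miR-200 genes. The endometrium holds a luminal and a glandular epithelium beside its stroma. Each hairpin gives a 3p arm, usually the abundant one, and a 5p arm from the opposite strand. In the RefSeq gene table of the goat assembly ARS1.2, MIR141 and MIR200C stand next to each other on one chromosome, and MIR429, MIR200A and MIR200B stand next to each other on another.

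The sequences show why the family falls into groups by seed and arm. Capitals mark the seed, and the first 4 names are of the 3p arm, the last 3 of the 5p arm. The name cgr-miR-200c has no arm annotation and was placed by its seed, which equals that of the 3p name of miR-429.
hsa-miR-141-3p_R-1: tAACACTGtctggtaaagatg
hsa-miR-141-3p_R+1: tAACACTGtctggtaaagatggc
cgr-miR-200c: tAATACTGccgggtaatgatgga
oan-miR-429-3p_R+2: tAATACTGtctggtaatgccgtaa
hsa-miR-200a-5p: cATCTTACcggacagtgctgga
hsa-miR-141-5p_1ss11TC: cATCTTCCagcacagtgttgga
hsa-miR-200c-5p_L+1R-1: tCGTCTTAcccagcagtgtttg

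In these names L and R followed by a number give the bases more or fewer than the reference miRNA at the 5′ or 3′ end. Both miR-141-3p names start at the same base and differ only at the 3′ end, with lengths of 21 and 23 nt. By seed, the 3p arms of miR-141 and miR-200a form one group (the miR-141 seed group) and those of miR-200b, miR-200c and miR-429 another (the miR-200c seed group). The seeds of both groups differ by C4T, counted from 1 at the 5′ end of miR-141-3p, and this was the only substitution inside the seed. Outside the seed, miR-141-3p and cgr-miR-200c differ by T9C, T11G and A17T over 21 positions, and miR-141-3p and oan-miR-429-3p_R+2 by A17T, A19C and T20C. The miR-141-5p name carries T11C against its human reference. The extra 5′ base of hsa-miR-200c-5p_L+1R-1 shifts its seed by 1 base. In all, the 7 names have 5 distinct seeds. None of the other known names and none of 621 predicted candidate names had one of these seeds at bases 2 to 8.

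NE was higher in R for all 7 names, and 6 of the 7 passed both limits of the study, namely P under 0.05 by Fisher's exact test and a log2 ratio above 1. Among the 438 known names above 0 in both libraries and with at least 1 NE in 1 of them, 84 passed the same limits in this direction, which is 19.2%. By the log2 ratio alone, without a test, 6 of 7 exceeded 1, against 22.8% of the 438 names. The 95% exact (Clopper-Pearson) interval of the ratio lay wholly above a log2 ratio of 1 for 5 of 7 names, against 9.36% of the 438. The median log2 ratio was 2.73 over the 7 names and 0.03 over all 438. All intervals cover counting error only, since reads amplified by PCR and carrying no molecular identifier do not stand for separate molecules.

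The most abundant member was hsa-miR-141-3p_R-1, from the miR-141 seed group, with 28337 NE in R against 5791 in P. It was 4.89-fold higher in R (log2 ratio 2.29, 95% exact interval 2.25 to 2.33), and rose from rank 37 of the known names in P to rank 12 in R. The longer form hsa-miR-141-3p_R+1 had 1673 NE in R and 252 NE in P, a log2 ratio of 2.73 (2.53 to 2.94). Both forms of miR-141-3p were thus higher in R with many reads in each library, and no name of the 3p arm of miR-200a, which would belong to the same seed group, was found.

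In the miR-200c seed group, cgr-miR-200c carried nearly all reads, with 1556 NE in R and 316 NE in P. Its log2 ratio was 2.30 (2.11 to 2.49), which exceeds that of hsa-miR-141-3p_R-1 by 0.01 with an exact interval of -0.18 to 0.20. The most abundant names of both seed groups therefore differed between the libraries by nearly the same factor, while hsa-miR-141-3p_R+1, with more NE in R than cgr-miR-200c, had a larger ratio than either. The other name of the group, oan-miR-429-3p_R+2, had 49.9 NE in R, while its 3.49 NE in P came from 3 reads, so that its log2 ratio of 3.84 is known only within 2.22 to 6.16. Its rank was 204 in R and 350 in P.

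The 5p arm was represented by 3 names. hsa-miR-200a-5p, the only name of miR-200a, had 450.6 NE in R (524 reads) and 39.5 NE in P (34 reads). It was 11.4-fold higher in R (log2 ratio 3.51, interval 3.01 to 4.06), and 6 of the 438 names had a larger log2 ratio. This ratio is in doubt beyond its counting error. The study also measured this miRNA by stem-loop RT-qPCR. Its authors describe the levels of miR-200a in both phases as nearly equal, and its sequencing pattern as opposed to RT-qPCR. The sequencing value, including its direction, cannot be relied on without those measurements, which were not analysed here. hsa-miR-141-5p_1ss11TC had 13 reads in R against 1 in P (log2 ratio 3.26, 0.53 to 8.67, P = 0.000192 in Fisher's exact test), and its interval reaches below a 2-fold difference. Fisher's test refers to the clean reads, which favour R, and on the NE scale of the ratio the exact binomial test gave P = 0.00606. hsa-miR-200c-5p_L+1R-1 had 2 reads in R against 1 in P (P = 0.586 in Fisher's exact test and P = 1 in the binomial test), and no difference was detectable at this depth. The limit that a count of 0 allows, 3 reads, was 2.58 NE for R and 3.49 NE for P.

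**Figure D1:**
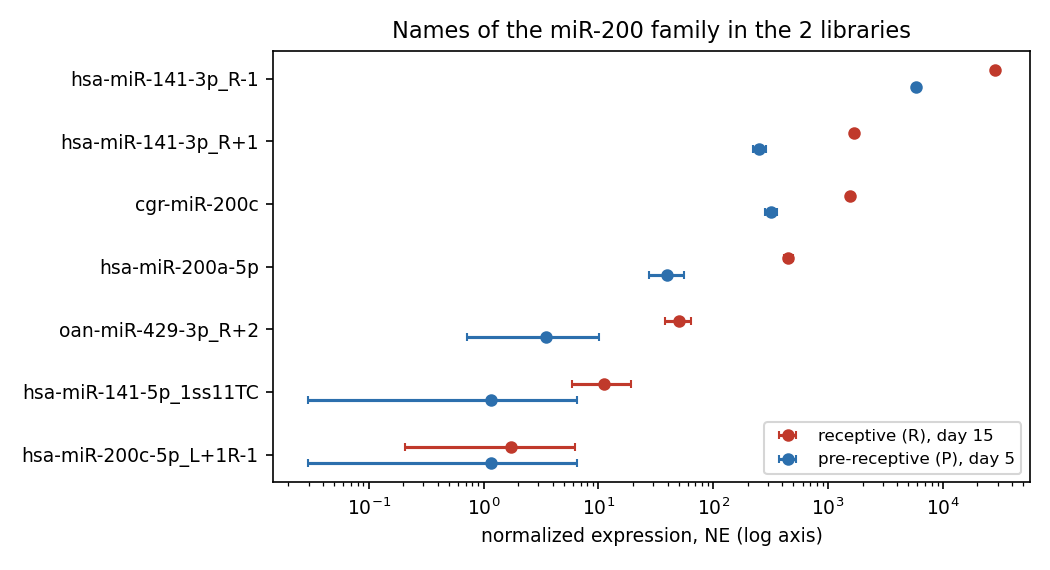
NE of the 7 names of the miR-200 family on a log axis, with red points for the R library and blue points for the P library. Bars are 95% exact Poisson intervals, and every name has the higher value in R, while the intervals of both libraries overlap for hsa-miR-200c-5p_L+1R-1 and narrowly for hsa-miR-141-5p_1ss11TC.

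The order of the levels was the same in both libraries with exceptions among neighbours. hsa-miR-141-3p_R-1 was first in both. In R the next was hsa-miR-141-3p_R+1, with 1.08 times the reads of cgr-miR-200c (95% exact interval 1.01 to 1.15), and in P this order was turned, with 0.798 times (0.664 to 0.957). The lowest 2 names, hsa-miR-141-5p_1ss11TC and hsa-miR-200c-5p_L+1R-1, had 1 read each in P and could not be put in order there. These ratios within a library do not depend on the scaling between libraries.

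The sequencing ratios also differed among the names. Of 21 pairs of names, compared after their values were seen, 5 had a ratio of ratios whose exact interval did not include 1. hsa-miR-200a-5p had a larger sequencing ratio than hsa-miR-141-3p_R-1 (log2 of the ratio of ratios 1.22, 0.72 to 1.77), cgr-miR-200c (1.21, 0.67 to 1.79) and hsa-miR-141-3p_R+1 (0.78, 0.23 to 1.37). hsa-miR-141-3p_R+1 had a larger ratio than hsa-miR-141-3p_R-1 (0.44, 0.23 to 0.65) and cgr-miR-200c (0.43, 0.15 to 0.71). Of these 5 pairs, 3 rest on the ratio of hsa-miR-200a-5p, with its 34 reads in P, and share the doubt about it given above. For oan-miR-429-3p_R+2 the interval against hsa-miR-141-3p_R-1 was -0.07 to 3.87, so the 3 reads in P did not allow a difference to be seen.

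Summed over the 7 names, the family had 32080 NE in R and 6406 NE in P, a 5.01-fold difference (log2 ratio 2.32, interval 2.28 to 2.37). Of the known reads it accounted for 1.96% in R (95% exact interval 1.94% to 1.98%), against 0.136% in P (0.133% to 0.140%). hsa-miR-141-3p_R-1 accounted for 88.3% of the reads of the family in R and 90.4% in P, so the sum mainly follows this name, and without it the log2 ratio was 2.61.

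The size of these ratios depended on the scaling. Their direction could not turn, since the scalings by clean reads and by known reads raise every ratio. With reads scaled to the clean reads of each library, all log2 ratios are raised by 0.78, and with reads scaled to all reads listed for known miRNAs (the known reads) by 1.52. The median over all 438 names moved with them, to 0.81 and 1.55, so that the median of the family stayed 2.70 above that of all names under each scaling. The same scalings changed the calls among the known names, from 84 higher and 37 lower as deposited (69.4% higher) to 158 and 19 with the clean reads (89.3%) and to 256 and 10 with the known reads (96.2%). Of the 438 names, those called higher thus made up 36.1% by the clean reads and 58.4% by the known reads, and those called lower 4.34% and 2.28%, against 8.45% as deposited. With the exact binomial test, whose expectation is on the NE scale like the ratio, 70 were higher and 49 lower (58.8%), which is 16.0% and 11.2% of the 438. For the family, 6 of 7 names were called under each of these.

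**Figure D2:**
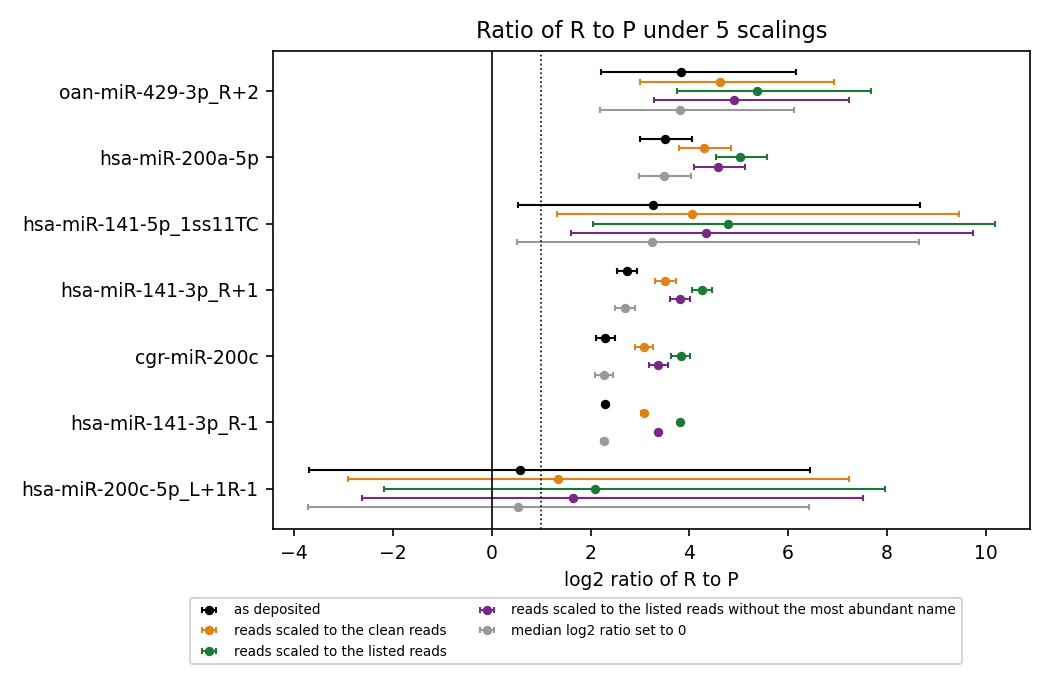
Log2 ratio of R to P for the 7 names under the deposited scaling and 4 others, with 95% exact intervals, a solid line at 0 and a dotted line at 1. The points of all names lie right of 0 under every scaling, from 0.56 for hsa-miR-200c-5p_L+1R-1 to 3.84 for oan-miR-429-3p_R+2 as deposited, and the interval of hsa-miR-200c-5p_L+1R-1 spans 0.

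Within miR-141-3p, the share of the longer end variant was larger in R. It was 5.58% of 34901 reads in R (95% exact interval 5.34% to 5.82%), against 4.18% of 5197 reads in P (3.65% to 4.76%), with P = 1.85e-05 in Fisher's exact test and 5.55e-05 after Benjamini-Hochberg adjustment over 3 comparisons of ends and arms. The shorter variant therefore remained the main form of miR-141-3p in both libraries. The length of the reads counted under each name was not analysed here.

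The arms could be compared for the hairpins of miR-141 and miR-200c, and the 5p arm was rare in both. It held 0.0372% of the miR-141 reads in R (13 of 34914) and 0.0192% in P (1 of 5198), and 0.110% of the miR-200c reads in R (2 of 1811) and 0.366% in P (1 of 273). With so few 5p reads a difference between the libraries was not detectable (P = 1 and P = 0.344, Fisher's exact test, adjusted 1 and 0.516). For miR-200a a 5p name alone and for miR-429 a 3p name alone was found.

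Among the 3p reads of the family, the miR-141 seed group accounted for 94.92% in R (95% exact interval 94.7% to 95.1%), against 94.97% in P (94.4% to 95.5%). The log2 ratios were 2.31 for the miR-141 seed group and 2.33 for the miR-200c seed group. This balance is set by hsa-miR-141-3p_R-1, without which the miR-141 seed group held 51.0% of the 3p reads in R against 44.1% in P. A split by chromosome, chosen after the values were seen, showed a difference. The names of miR-200a and miR-429, whose genes are neighbours, held 1.56% of the reads of the family in R (1.44% to 1.69%) and 0.672% in P (0.473% to 0.925%). These were 582 and 37 reads, mostly of hsa-miR-200a-5p, and their summed log2 ratio of 3.54 (3.06 to 4.06) compares with 2.31 (2.27 to 2.35) for miR-141 and miR-200c. The 5p arm, which shares hsa-miR-200a-5p with this split, had a log2 ratio of 3.47 (2.98 to 3.998), so that chromosome and arm cannot be told apart. Of its 539 reads in R and 36 in P, hsa-miR-200a-5p had 524 and 34. The other 5p names had 13 reads in R against 1 in P (hsa-miR-141-5p_1ss11TC) and 2 against 1 (hsa-miR-200c-5p_L+1R-1). Most reads in both sums are of hsa-miR-200a-5p, so both summed ratios share the doubt about its ratio. Without this name the share of the neighbours was 0.158% in R and 0.0548% in P, from 58 and 3 reads of miR-429 (these shares too were chosen after the values were seen).

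**Figure D3:**
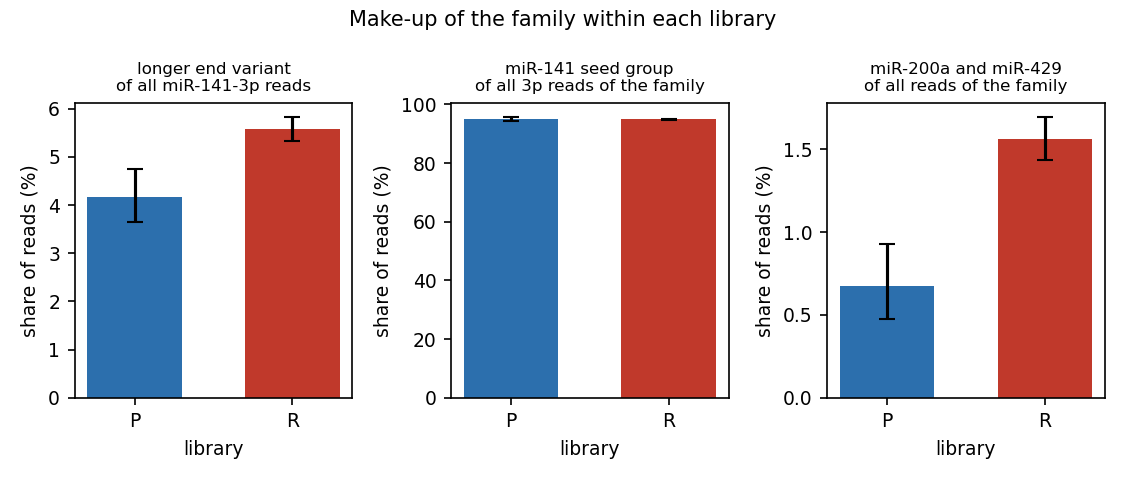
Shares of reads within each library, in percent, with 95% exact binomial intervals and blue bars for P and red bars for R. The longer end variant of miR-141-3p and the names of miR-200a and miR-429 have larger shares in R, and the share of the miR-141 seed group is 94.92% in R and 94.97% in P.

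Other miRNAs known from epithelium also had higher values in R. Of 12 names of miR-31, miR-96, miR-182, miR-183, miR-203, miR-205 and miR-375, 9 were tested, and 8 were called higher and 0 lower, where 19.2% of all tested names were called higher. This list and those below were chosen with earlier results of these data known, so their counts are descriptions and not tests. They had a median log2 ratio of 2.77 and a summed level of 10292 NE in R against 1971 in P. The most abundant was bta-miR-31_R+2 (3547 NE in R and 1306 NE in P), and the log2 ratios of names with at least 10 reads in 1 library ran from 1.36 for hsa-miR-31-3p_R+1 to 5.46 for bta-miR-183_L-1 (3.89 to 7.75). The 3 names hsa-miR-182-3p_L+2R-1, hsa-miR-183-3p_L-1 and mmu-miR-203-5p_1ss11GA were listed at 0 in P, and no name of miR-203a was found. In bulk tissue, more cells of a type and more RNA per cell cannot be told apart.

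Of 8 names of ciliated epithelium (miR-34b, miR-34c, miR-449a and miR-449b), 5 were tested, with 3 called higher, against the same 19.2%, and 0 lower. Their summed level was 4872 NE in R against 1234 in P, with the largest share from hsa-miR-34c-5p (2778 and 1090 NE). hsa-miR-449a had the highest log2 ratio, 6.82 (6.07 to 7.70), and hsa-miR-34c-5p_2ss11GA23CT the lowest, 0.68 (0.27 to 1.14). No name of miR-449c was found, and 3 names of miR-449a and miR-449b were listed at 0 in P.

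The lists of smooth muscle and stroma and of striated muscle had lower summed levels in R, also with reads scaled to the known reads. In the first list the lower level came from miR-143 and miR-145, whose 4 names were all called lower. The names of miR-199a, miR-199b and miR-214 were not called with the deposited scaling, and their log2 ratios ran from -0.44 to 0.90. The most abundant of these, oar-miR-199a-3p, had -0.05. Scaled by the clean reads or the known reads, their log2 ratios all lie above 0. For miR-143, miR-145, miR-199a, miR-199b and miR-214 the sum was 389750 NE in R and 1976680 NE in P, and 4 of 11 tested names were called lower and 0 higher, where 8.45% of all tested names were called lower. The calls of this list depended on the scaling (for the cell type lists an alternative chosen after seeing the data), with 2 lower and 2 higher by the clean reads and 1 lower and 7 higher by the known reads, where 36.1% and 58.4% of all tested names were called higher. The sum mainly follows aja-miR-143_1ss22GT, the most abundant name of both libraries, with 289634 NE in R and 1866274 NE in P (log2 ratio -2.69), while bta-miR-199b had the highest log2 ratio of the list, 0.90 (0.86 to 0.94). The 7 names of striated muscle summed to 211 NE in R and 3796 NE in P, with 4 of 6 tested names called lower, against 8.45% of all, a count that was 4 under both other scalings as well. oar-miR-133_L+1 was the most abundant (144.9 and 3558 NE) and among names with at least 10 reads in 1 library hsa-miR-499a-5p had the highest log2 ratio, -1.03 (-1.48 to -0.60), which turns to higher in R with reads scaled to the known reads. oar-miR-133_L+1R-2 was lowest, at 0.430 NE in R, under the limit of 3 reads, and 64.5 NE in P, and cfa-miR-208a_R-1 was listed at 0 in R. No name was found for miR-133b, miR-206, miR-208b or miR-499.

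With the deposited scaling, the summed levels of the lists of blood cells and endothelium differed less between the libraries than those of the lists above. The 9 names of blood cells, 2 pairs of which share their values, summed to 12221 NE in R and 12134 NE in P, with 2 of 8 tested names called higher, a share near the 19.2% of all names, and 0 lower, cgr-miR-142-3p_L+1R+1 highest (log2 ratio 1.19) and hsa-miR-144-5p_L+2R-3 lowest (-0.80). cgr-miR-486-5p had 5052 NE in R and 8073 NE in P, ssc-miR-451_L+3R-1 had 2 reads in R against 1 in P, oan-miR-223-3p_1ss22AT was listed at 0 in P, and no name of miR-451a or miR-150 was found. cgr-miR-486-5p is higher in R when scaled by clean reads, and hsa-miR-144-5p_L+2R-3 with reads scaled to the known reads. The 4 names of miR-126 summed to 32841 and 21287 NE, hsa-miR-126-5p being the most abundant. Among those with at least 10 reads in 1 library it was also the highest (log2 ratio 0.64) and oan-miR-126-3p_L-1R+2 the lowest (0.47), while oan-miR-126-5p_R-3_1ss18CA, with fewer reads, had 0.05, with 0 of 4 called. By the clean reads as by the known reads, 4 names of the blood cell list and 3 of miR-126 were called higher, 5 of 5 of ciliated epithelium, and 8 of 9 of epithelium. These counts stand against 36.1% and 58.4% of all tested names called higher under the same scalings, and the 4 of 8 of the blood cell list lie between both shares. No name was found for the early embryo list of miR-302, miR-367 and miR-371 to miR-373. The part of cell make-up in the values of the miR-200 family was not tested.

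**Figure D4:**
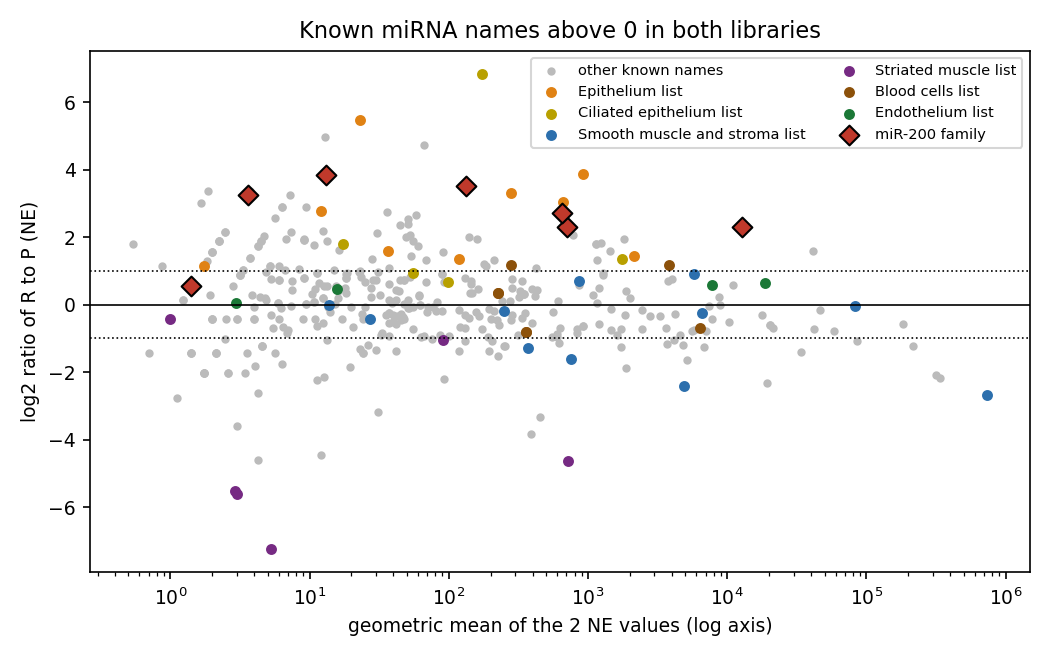
Log2 ratio of R to P against the geometric mean of both NE values (log axis) for the 438 known names tested, with the miR-200 family as red diamonds, the cell type lists in other colours and dotted lines at 1 and -1. The family lies above 0 at all levels, as does the epithelium list, and the striated muscle list lies below, although its hsa-miR-499a names move above 0 with reads scaled to the known reads.

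The 5 names outside the family with log2 ratios nearest to the summed family, among 274 names with at least 10 reads in each library, were mmu-miR-3963_R+2_1ss1TC (2.37), mmu-miR-22-5p_R-1 (2.39), hsa-miR-9-3p_L-1R+1 (2.13), hsa-miR-4454_L+1_1ss3GA (2.55) and rno-miR-147_R-1 (2.06). Their levels in R were between 63.6 and 123 NE, far below the 28337 NE of hsa-miR-141-3p_R-1. The next most abundant names after aja-miR-143_1ss22GT in both libraries, oar-miR-10b_L+1R-1 and oar-miR-10a_R+1_1ss12TA, were lower in R, with log2 ratios of -2.16 and -2.09, and with reads scaled to the known reads they were still lower. The study lists both names with the same sequence, so their ratios are not independent of each other.

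Predicted targets were listed for 6 of the 7 names, and hsa-miR-200c-5p_L+1R-1 had none listed. The authors had kept a target where both TargetScan and miRanda named it, and the files do not pair the target identifiers with gene names, and ZEB1 and ZEB2 were not looked up here. The lists held 988 identifiers for hsa-miR-141-5p_1ss11TC, 849 for hsa-miR-141-3p_R+1, 832 for hsa-miR-141-3p_R-1, 679 for oan-miR-429-3p_R+2, 645 for cgr-miR-200c and 351 for hsa-miR-200a-5p. Together they named 2247 of the 7608 identifiers, 29.5%, of which 875 were named by 1 name of the family and 7 by all 6.

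Both programs rely in part on pairing with the seed, so a large overlap between lists of equal seed follows mainly from the method and is given as a description. Lists of equal seed were still not identical. All 832 identifiers of hsa-miR-141-3p_R-1 were also listed for hsa-miR-141-3p_R+1, where they accounted for 98.0%, and cgr-miR-200c and oan-miR-429-3p_R+2 shared 612 identifiers, 94.9% and 90.1% of their lists. Across the 2 seed groups, which differ by C4T, 164 identifiers were shared, 19.3% of the miR-141 seed group and 23.0% of the miR-200c seed group. For all 10011 pairs of miRNA names with listed targets, the median share of the shorter list was 18.1% and the 95th percentile 27.5%. The 23.0% of the miR-200c seed group, the shorter of both joined lists, lies between these values. The 5p names hsa-miR-200a-5p and hsa-miR-141-5p_1ss11TC, whose seeds differ by A7C counted in the same way from hsa-miR-200a-5p, shared 83 identifiers, 23.6% and 8.40% of their lists. Both 5p lists together shared 406 identifiers with the 3p lists, 32.3% of the 5p and 29.1% of the 3p identifiers. These lists are joined over several names, and no background was computed for joined lists.

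**Figure D5:**
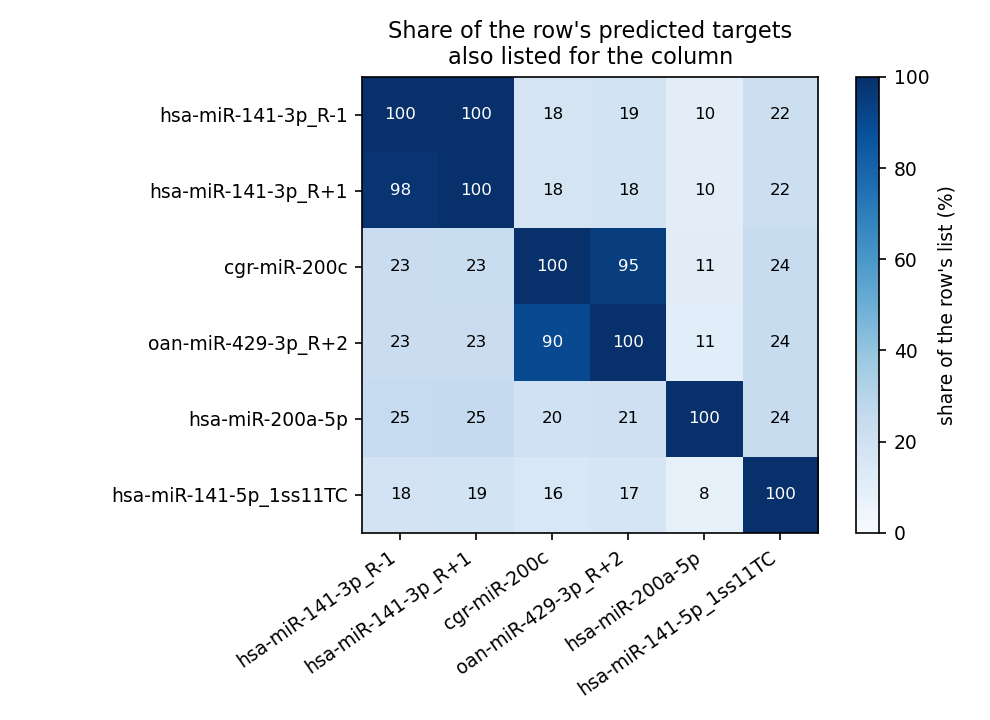
Share of the predicted targets of the name in each row that are also listed for the name in each column, in percent. The pairs with equal seeds reach 90.1% to 100%, and the other pairs lie between 8.40% and 25.1%.

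In the table of conservation, hairpins of mir-141 were listed for 14 of 23 species, mir-429 for 13, mir-200a for 12, and mir-200b and mir-200c for 10 each. mir-200b thus stands in that table although no mature name of miR-200b was found among the known names, and its level in the endometrium is not given here.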

How the data were processed

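Small RNA of pooled goat endometrium was sequenced in 1 R and 1 P library. The authors filtered out adapter dimers, low-quality reads, repeats and other RNA classes, matched the rest to miRBase precursors, and deposited a normalized signal (NE) per miRNA. The deposited columns of fold, log2 ratio and P-value were not used. Library labels were checked against the table of differential expression, in which all 340 shared known names had equal values within 0.006. Candidate values were not used, because their library labels are the reverse of that table.

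By the formula of the study NE is in proportion to reads over clean reads, but the NE of 1 read differs from that formula in both libraries, so the alternative with clean reads follows the stated formula. The NE of 1 read was taken as the most frequent value above 0 in a library, and NE was divided by it to obtain reads. The values are signals with fractions of a read: 85.2% of names in R and 87.5% in P were within 0.02 of a whole read, and reads were rounded. The 54 repeated names were counted once, with NE as listed and reads summed. Fisher's exact test (two-sided) compared rounded reads with the remaining clean reads stated by the study, while ratios and Clopper-Pearson intervals are on the NE scale. Named miRNAs were all names of the family, the 5 nearest log2 ratios, from each cell type list the most abundant, highest and lowest name, names sharing a seed, and the 3 most abundant names of each library. Members and lists were chosen with earlier results of these data known. The calls were also run on simulated reads with counting error only. That simulation cannot show how the calls behave with a spread between goats or pools. Alternatives were other scalings, filters, tests, adjustment, a pseudocount of 1 NE and merged names. Python 3.11.15, numpy 2.4.6, scipy 1.17.1 and matplotlib 3.10.9 were used.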

Additional observations from a re-analysis of the deposited data

How the results depend on the processing

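Under other scalings, a pseudocount of 1 NE, the exact binomial test and adjusted P-values, 6 of 7 names were called in each setting. The direction of the 7 names is no sign of stability here, since these settings raise every ratio, leave it or move it too little to turn it. hsa-miR-200c-5p_L+1R-1, which was not called, passed a log2 ratio of 1 with the clean reads (1.35), the known reads (2.09) and the known reads without the most abundant name (1.64). The summed family had a log2 ratio of 3.11 with the clean reads, 3.85 with the known reads, 3.40 with the known reads without the most abundant name and 2.61 without its own most abundant name, which follows from the factor used or the name left out. Known names called higher in R numbered 47 with at least 10 reads in each library (fewer names tested), 158 with the clean reads and 256 with the known reads. Those called lower numbered 19 and 10 under these scalings. With an interval wholly beyond 2-fold, an alternative chosen after seeing the data, 41 were higher. Without hsa-miR-141-3p_R-1 the miR-141 seed group accounted for 51.0% of the 3p reads in R against 44.1% in P, and the names of miR-200a and miR-429 held 13.4% and 7.01% of the family. Without hsa-miR-200a-5p the latter share was 0.158% in R and 0.0548% in P. These splits of the miR-200a and miR-429 share were also chosen after seeing the data. The arm shares with at least 3 reads in each library gave no value, since the 5p names had 1 read each in P. No paired analysis was possible because each phase has 1 library. The low reads in P limit miR-429 and the 5p names, and the pooled libraries give no spread between goats.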
